A study of Bos taurus with 15 samples.

Results

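The subcortical maternal complex is a set of proteins that lies under the plasma membrane of the mammalian oocyte and of the cleaving embryo. Its genes are transcribed in the growing oocyte, the proteins are carried over into the embryo, and loss of single members in the mother stops mouse embryos in early cleavage. In mice the complex is tied to the fibrous cytoplasmic lattices that store proteins in the egg, and variants of several members in women are known from arrested embryos and imprinting disorders. A blastocyst lies beyond the stages for which the complex is best known. The transcripts measured here are thus the poly(A) RNA still present, or made anew, when the first lineages have formed. A stored transcript without a poly(A) tail could be missed.

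The members were chosen by name: NLRP5, NLRP2, OOEP, TLE6, KHDC3L, PADI6 and ZBED3, which are 7 genes beside a table of 17259. Of these, 6 had a row in the deposited table, 5 had at least 1 count in some library, and 4 (OOEP, TLE6, KHDC3L and ZBED3) passed the filter on low counts and were tested among 11578 genes. NLRP2 had no row under that symbol and was not analysed here. Poly(A) RNA was sequenced from day 7 embryos of cattle (Bos taurus), with 5 blastocyst libraries in each of 3 groups. The automatic group was cultured in SOF medium after an automated removal of the cumulus cells from the zygotes, the manual group was cultured in the same medium after removal by hand, and the in vivo group was collected from the animal without culture; the automatic and manual groups together are called in vitro. No genotype, breed or donor is given, and the labels leave unstated how many embryos went into a library and whether replicate libraries are separate cultures or donors, so p-values measure the spread between these libraries alone, which may be technical.

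Library totals lay between 17.96 and 41.97 M counts (1 M is 1e6), with 28.3 ± 5.67 M in the automatic group, 26.4 ± 4.83 M in the manual group and 31.4 ± 8.72 M in vivo (SD, n = 5 each). Levels are given as CPM, counts per 1e6 counts of the library total after scaling by the TMM method. In 5 libraries (automatic 2 and 4, manual 2, in vivo 2 and 4) between 6977 and 8547 genes reached 10 counts, against 9900 to 12611 in the other 10 libraries, and these 5 are called low-detection libraries. Markers of a blastocyst were present: 7 of 9 trophectoderm genes, 6 of 7 measured epiblast genes and 5 of 9 hypoblast genes had counts in all 15 libraries. Of 12 measured cumulus and granulosa genes, only FOXL2, an ovarian granulosa factor, was at 0 in all 15 libraries. Counts in all 15 were found for 3 of these genes, and counts in some libraries for 8. Their summed level ranged from 284 to 928 CPM in the automatic group, 769 to 1939 CPM in the manual group and 628 to 2742 CPM in vivo, most of it PTGS2, a prostaglandin synthase, which averaged 506, 1051 and 1228 CPM in that order; their part in the results below was not tested. Of these cumulus and granulosa genes 6 were tested, and none had an edgeR adjusted p under 0.05 in either comparison that follows. In vitro all 6 lay lower than in vivo (median log2 fold change -0.76 beside -0.04 over all genes tested). In automatic against manual 4 lay lower and 2 higher (median -0.76 beside -0.05). In bulk libraries, fewer cells that hold a transcript and less of it per cell cannot be told apart.

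The complex genes ranged from no counts at all to counts in every library. NLRP5, the NACHT and leucine-rich repeat protein known as MATER, which forms the core of the mouse complex with OOEP and TLE6, had 0 counts in all 15 libraries. A count of 0 allows up to 0.0614 to 0.230 CPM in a single library (3 counts) and up to 0.0194 CPM over the automatic group, 0.0220 CPM over the manual group and 0.0193 CPM in vivo (3 counts over the group, counting error only). Whether the transcript set used for counting represents bovine NLRP5 fully is not given in the sources used here. NLRP5 was 1 of 2254 genes, 13.1% of the table, at 0 throughout. At the other end OOEP had a count in every library, as did 5432 genes (31.5%) of the table, and 10 or more in 14 of 15. The remaining 4 members had counts in some libraries and 0 in others, as did 55.5% of the table: TLE6 had counts in 11 libraries, ZBED3 in 13, KHDC3L in 9 and PADI6 in 5 of 15.

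**Figure D1:**
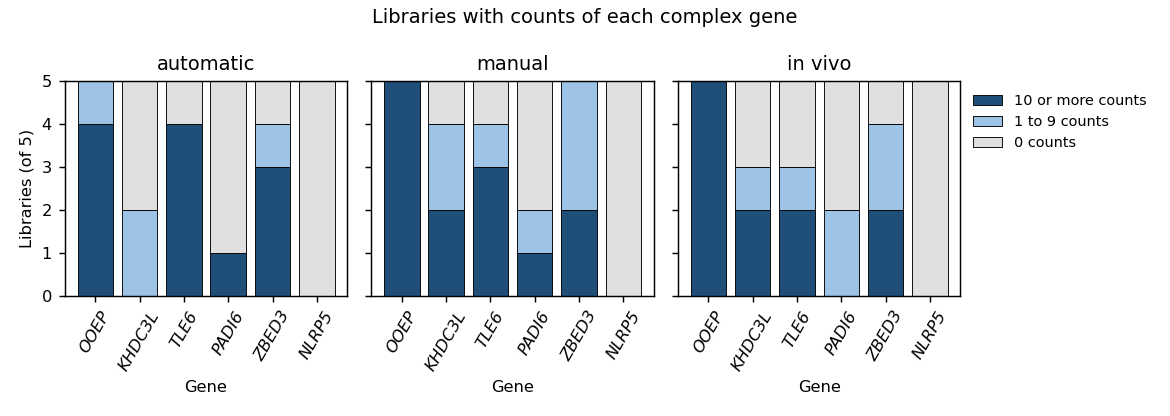
Number of libraries (y axis, of 5) in which each complex gene (x axis) had 10 or more, 1 to 9 or 0 counts, in the automatic, manual and in vivo groups. OOEP had counts in all 15 libraries, NLRP5 in none, and each of the other genes was at 0 in at least 2 libraries.

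The KH-domain members stand side by side in the genome: KHDC3L and OOEP are direct neighbours among the protein-coding genes of the ARS-UCD2.0 annotation, used here for gene order alone. OOEP, also called FLOPED in the mouse, carries a KH-like RNA-binding fold and is a core subunit. It lay at 3.25, 4.09, 11.6, 0.277 and 10.5 CPM in automatic libraries 1 to 5, at 6.08, 2.53, 2.40, 1.54 and 5.37 CPM in manual libraries 1 to 5, and at 10.4, 56.7, 8.16, 26.6 and 3.63 CPM in vivo 1 to 5. The means were 5.96 ± 4.90 CPM in the automatic group, 3.59 ± 2.01 CPM in the manual group and 21.1 ± 21.7 CPM in vivo (SD, n = 5 each). In vivo 2 and 4 stood above every other library, and the other 3 in vivo libraries lay within the range of the in vitro ones, so the groups overlapped.

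Both of those high OOEP libraries are low-detection libraries. The 3 low-detection libraries of the in vitro groups, automatic 2 and 4 and manual 2, did not share the high level, at 4.09, 0.277 and 2.53 CPM. Among the other 10 libraries OOEP averaged 8.47 ± 4.55 CPM after automatic denudation (n = 3), 3.85 ± 2.22 CPM after manual denudation (n = 4) and 7.40 ± 3.45 CPM in vivo (SD, n = 3). In vivo 2 also had the lowest TMM factor of all libraries, 0.543, which raises its CPM relative to a scaling by library size alone. Before any scaling, in vivo 2 and 4 also had the most OOEP counts, 741 and 581, ahead of automatic 3 at 481. Their library totals, 24.07 and 24.48 M, were smaller than that of automatic 3, 33.48 M.

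**Figure D2:**
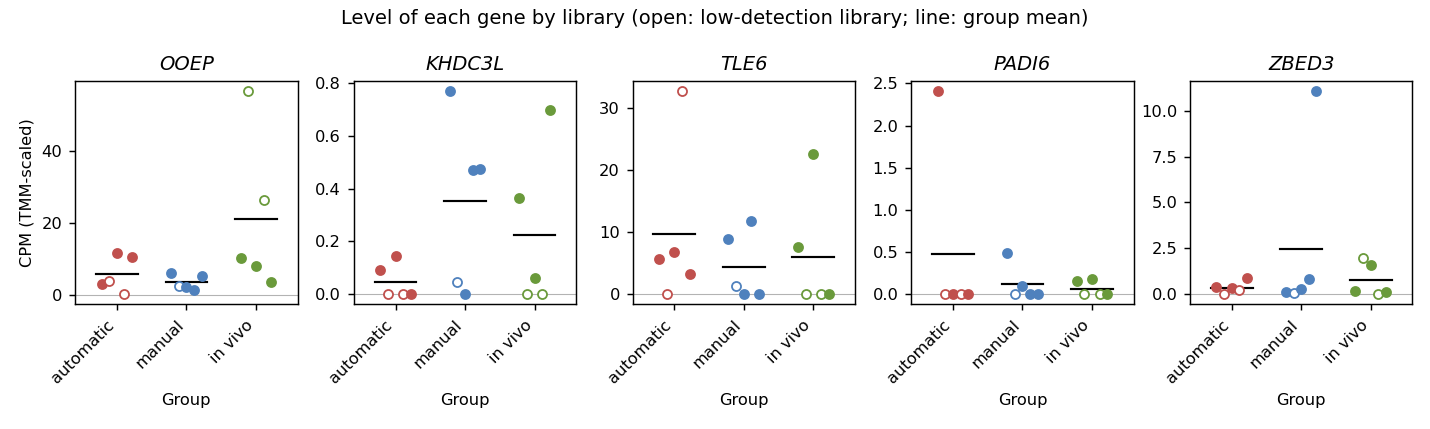
CPM of OOEP, KHDC3L, TLE6, PADI6 and ZBED3 (y axis, own linear scale per gene) in each library of the automatic, manual and in vivo groups (x axis). Points are libraries, open points the low-detection libraries, and lines group means. OOEP is highest in 2 open in vivo points at 56.7 and 26.6 CPM, TLE6 in automatic 4 at 32.7 CPM, PADI6 in automatic 1 at 2.41 CPM and ZBED3 in manual 5 at 11.1 CPM.

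KHDC3L, the FILIA gene of the mouse complex and another KH-domain protein, stayed low. It had 3 and 6 counts in automatic 1 and 3 and 0 in the other 3 automatic libraries, 25, 1, 0, 15 and 9 counts in manual 1 to 5, and 16, 0, 3, 0 and 19 counts in vivo 1 to 5. Its mean was 0.0478 ± 0.0679 CPM in the automatic group, 0.352 ± 0.324 CPM in the manual group and 0.224 ± 0.304 CPM in vivo (SD, n = 5 each). All 3 groups held libraries at 0 and overlapped. Of the 5 low-detection libraries 1 had a KHDC3L count, against 8 of the other 10. Its correlation with detection is given with that of the other members. Its neighbour OOEP had counts in all 15 libraries, and so also where KHDC3L was at 0.

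TLE6, a member of the Groucho family of WD-repeat proteins that binds OOEP and NLRP5 in the mouse, had the widest spread of the 4 tested members on the log2 scale. It lay at 5.75, 0, 6.84, 32.7 and 3.31 CPM in automatic libraries 1 to 5, at 8.91, 1.27, 0, 11.8 and 0.105 CPM in manual libraries 1 to 5, and at 7.57, 0, 22.5, 0 and 0.0367 CPM in vivo 1 to 5. Each group ran from 0 to at least 11.8 CPM. The within-group SD of log2 CPM (prior count 2) was 3.60 for TLE6, which 95.9% of tested genes lay below, against 1.55 for OOEP, 1.38 for KHDC3L, 2.05 for ZBED3 and a median of 2.21 over all genes tested. KHDC3L was at 0 in 6 libraries, and only 0.199% of tested genes had a lower mean log2 CPM. At such counts the prior count narrows the log2 spread, so its SD does not show that it varied little. The means were 9.72 ± 13.1 CPM in the automatic group, 4.41 ± 5.53 CPM in the manual group and 6.03 ± 9.79 CPM in vivo (SD, n = 5 each).

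PADI6, a relative of the peptidylarginine deiminases that is needed for the lattices of the mouse egg, had counts in 5 libraries: 77 in automatic 1, 16 in manual 1, 3 in manual 3, 7 in vivo 1 and 9 in vivo 3. Automatic 1 alone held 68.8% of all its counts. It was at 0 in 4 of 5 automatic, 3 of 5 manual and 3 of 5 in vivo libraries, and did not pass the filter, so it has no test. All 5 low-detection libraries were at 0 for PADI6, as were 5 of the other 10.

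ZBED3, a BED-type zinc finger protein reported in the mouse complex, had a single high library. It lay at 0.375, 0, 0.363, 0.221 and 0.861 CPM in automatic libraries 1 to 5, at 0.154, 0.0937, 0.285, 0.849 and 11.1 CPM in manual libraries 1 to 5, and at 0.181, 1.99, 1.57, 0 and 0.110 CPM in vivo 1 to 5. Manual 5 held 48.8% of all its counts. Without that library the highest values were 0.861 CPM in the automatic group, 0.849 CPM in the manual group and 1.99 CPM in vivo. With it the means were 0.364 ± 0.316 CPM in the automatic group, 2.49 ± 4.80 CPM in the manual group and 0.771 ± 0.937 CPM in vivo (SD, n = 5 each).

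The first comparison asked whether automated and manual removal of the cumulus leave different blastocysts. No member passed the test: of the 4 tested, OOEP and TLE6 lay above 0 on the log2 scale of fold change and KHDC3L and ZBED3 below, with intervals that all covered 0. OOEP differed by 0.73 ± 1.13 (SE), TLE6 by 1.14 ± 2.04, KHDC3L by -2.73 ± 1.71 and ZBED3 by -2.75 ± 1.80, and each had an edgeR quasi-likelihood adjusted p of 0.9999. Over all genes 0% were called (adjusted p under 0.05). Before adjustment 1.48% of genes reached p under 0.05, a mark that 0 of the 4 members reached. The 95% intervals ran from -1.64 to 3.10 for OOEP, -3.14 to 5.41 for TLE6, -6.31 to 0.84 for KHDC3L and -6.52 to 1.02 for ZBED3, so 4-fold differences in at least 1 direction lay inside each of them. Single libraries set the values of TLE6 and ZBED3: without automatic 4 TLE6 was at -0.13, and without manual 5 ZBED3 was at 0.08.

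The second comparison set culture against the animal. OOEP was the member with the largest difference, lower in vitro than in vivo by log2 -2.19 ± 0.94 (95% interval -4.15 to -0.23), with an unadjusted p of 0.0308 by edgeR and an adjusted p of 0.767 over all genes, so it was not called. TLE6 differed by 0.12 ± 1.75, KHDC3L by -0.74 ± 1.32 and ZBED3 by 0.31 ± 1.49 (SE), each with an edgeR adjusted p of 0.9993. Over all genes 0.0173% were called and 6.13% reached p under 0.05 before adjustment. Among the members 0 of 4 were called and 1 of 4 reached that p. An exact two-sided permutation of the 15 libraries on the mean log2 CPM of OOEP gave a difference of -2.01 and p = 0.0246 (3003 splits). That test was added after seeing the data, used the same libraries, and was not adjusted for the 4 members. The 4 members had the same test, with exact permutation p of 0.431 for TLE6, 0.932 for KHDC3L and 0.888 for ZBED3.

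The difference in OOEP was smaller without the 2 high in vivo libraries. With only those 2 left out, a setting chosen after seeing the data, it was -0.68 ± 1.15 and was not called by edgeR. Without in vivo 2 alone it was -1.38 and without in vivo 4 alone -1.96. With all 5 low-detection libraries left out, 3 of them in vitro, it was -0.37 ± 0.88 (edgeR adjusted p = 0.982). Scaled by library size without TMM factors it was -1.65 ± 0.95 (edgeR adjusted p = 0.9997), while the median of all genes stood at 0.10 there and at -0.04 with TMM.

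Lineage markers were read in the same comparison, and none of them was called in it. Of 8 tested trophectoderm genes 6 lay below 0, 4 of them at p under 0.05 before adjustment, and 2 lay above 0, 1 of them at p under 0.05; their median was -0.92 beside -0.04 over all genes tested. Of 7 tested epiblast genes 3 lay above 0 and 4 below, 1 of the 4 at p under 0.05 before adjustment (median -0.44). Of 8 tested hypoblast genes 2 lay above 0 and 6 below, 1 of the 6 at p under 0.05 before adjustment (median -0.32). The gene with the smallest edgeR p of each list is named next. PAG2, a placental glycoprotein, differed by log2 -2.27 ± 0.58, the pluripotency factor NANOG by -2.35 ± 0.49 and the endocytic receptor LRP2 by -1.41 ± 0.25 (SE, edgeR adjusted p = 0.323, 0.191 and 0.0676). NANOG averaged 49.0 ± 32.3 CPM in the automatic group, 54.5 ± 32.0 CPM in the manual group and 264 ± 111 CPM in vivo (SD, n = 5 each). For automatic against manual no lineage marker was called either. Of 8 tested trophectoderm genes 1 lay above 0 and 7 below, 3 of the 7 at p under 0.05 before adjustment. Their median was -0.73 beside -0.05 over all genes tested. Epiblast genes lay 5 above and 2 below 0 (median 0.69), none at that p. Hypoblast genes lay 5 above and 3 below 0 (median 0.33), 2 of the 3 at that p. The part of lineage composition in the OOEP value, or in the member values for automatic against manual, was not tested.

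**Figure D3:**
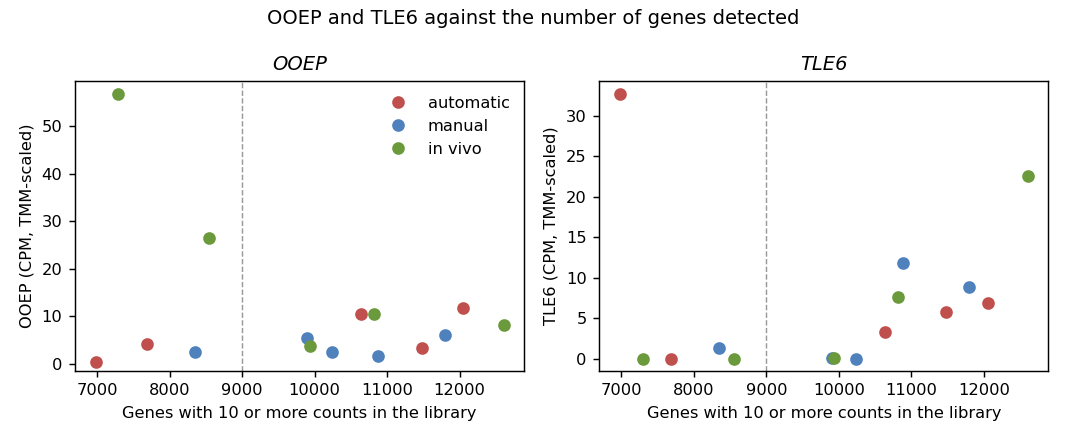
CPM of OOEP (left) and TLE6 (right) against the number of genes with 10 or more counts in the same library (x axis). Each point is a library coloured by group, and the dashed line marks 9000 genes, below which a library is called low-detection. The 2 highest OOEP values, 56.7 and 26.6 CPM, are in vivo libraries left of the line, and TLE6 is highest left of it in automatic 4, at 32.7 CPM.

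Taken group by group against in vivo, the automatic and manual values share the same 5 in vivo libraries. OOEP differed by log2 -1.82 ± 1.16 in the automatic group and by -2.56 ± 1.19 in the manual group (SE, edgeR adjusted p = 0.9997 for each). Without the low-detection libraries these were 0.20 ± 1.06 and -0.95 ± 0.98, so the sign for the automatic group turned. TLE6 differed by 0.69 ± 2.02 and -0.45 ± 2.02, KHDC3L by -2.10 ± 1.66 and 0.63 ± 1.61, and ZBED3 by -1.07 ± 1.70 and 1.69 ± 1.73 in the automatic and manual groups. Over all genes 0.0173% were called for the automatic group and 0% for the manual group, and 5.36% and 3.39% reached p under 0.05 before adjustment, beside 0 and 1 of the 4 members. Of the lineage markers, 1 of 8 tested hypoblast genes was called for the automatic group, lower than in vivo. No trophectoderm or epiblast marker was called there. Without manual 5, ZBED3 in the manual group was at -1.14, and without in vivo 3, TLE6 was at 2.34 and 1.19. KHDC3L was at -1.09 and 1.63 without in vivo 5, and at 0.12 in the manual group without manual 1.

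**Figure D4:**
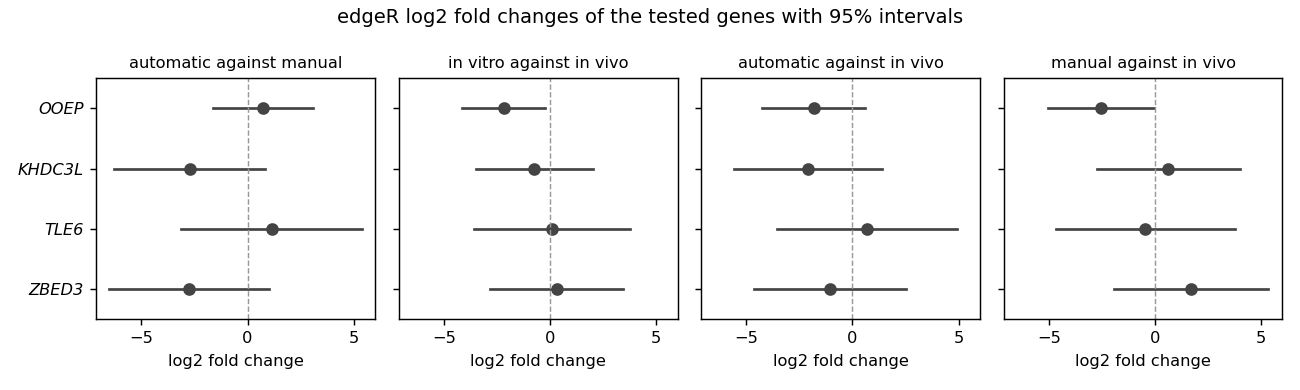
edgeR log2 fold changes (x axis) of OOEP, KHDC3L, TLE6 and ZBED3 (y axis) in the 4 comparisons, with points for the estimate and lines for the 95% interval. Intervals exclude 0 only for OOEP in the in vitro and in the manual group against in vivo, before any adjustment for the number of genes.

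No pair of members passed a test of correlation across libraries. Over the 15 libraries the 6 pairs of tested members had Pearson r from -0.38 (OOEP and TLE6) to 0.23 (TLE6 and KHDC3L) and Spearman rho from -0.27 to 0.38, with adjusted permutation p of at least 0.750 for r and 0.760 for rho. The pair of genomic neighbours, OOEP and KHDC3L, had r = -0.09 and rho = -0.10 (permutation p = 0.750 and 0.725 unadjusted). Leaving out the 2 libraries farthest from the median of OOEP moved its r with TLE6 to 0.02, and among the 10 libraries that are not low-detection it was 0.34. Centred within groups the 6 values lay between -0.32 and 0.37.

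TLE6 and KHDC3L tended to be higher where more genes were detected, but not past the test. The correlation with the number of genes at 10 or more counts was r = 0.49 and rho = 0.50 for TLE6 (permutation p = 0.0672 and 0.0618, adjusted p = 0.134 and 0.124 over 4 members) and r = 0.51 and rho = 0.54 for KHDC3L (permutation p = 0.0538 and 0.0397, adjusted p = 0.134 and 0.124). With the 2 libraries of most extreme gene number removed r was 0.77 for TLE6 and 0.37 for KHDC3L, and within the 10 other libraries 0.82 and -0.16. OOEP had r = 0.11 and rho = 0.15 and ZBED3 r = 0.25 and rho = 0.27, with permutation p of at least 0.324 for each.

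The genes most like the members were taken by Pearson r with the mean of the standardised log2 CPM of the 4 tested members over 15 libraries. They were PACS2 (r = 0.92), PHF21A (0.89), TCF20 (0.89), SLC35E3 (0.89), AMOT (0.88), TMEM39B (0.88), IFT70B (0.88) and PTPRM (0.87). Within the 10 libraries that are not low-detection their r lay between 0.75 and 0.92. Those 10 are among the 15 used to choose the genes, so this r is not a separate check. That mean had r = 0.65 with the number of genes detected, and the 8 genes had r from 0.42 to 0.75 with that number. The part of detection in the likeness was not tested. The members had r of only -0.38 to 0.23 with each other, so their mean need not stand for a shared pattern. These are the highest of all genes tested and are given as a description.

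Among relatives of the members, detection varied by gene. Of 12 other NLRP genes 7 were measured, and all 7 had counts in some library. NLRP8, NLRP13 and NLRP14, chosen after their values were seen, are the 3 that were tested. NLRP8, the neighbour of NLRP5 in the annotation, averaged 0.697 ± 0.969 CPM in the automatic group, 1.29 ± 1.77 CPM in the manual group and 0.0554 ± 0.0683 CPM in vivo (SD, n = 5 each), with counts in 9 libraries. NLRP14, an oocyte NLRP gene that is also a maternal-effect gene in the mouse, averaged 0.649 ± 0.903, 1.74 ± 2.08 and 13.5 ± 14.7 CPM in the same order, with counts in 8 libraries. NLRP13 had counts in all 15. In vitro against in vivo the log2 fold changes were 3.99 ± 2.004 for NLRP8, -3.66 ± 1.81 for NLRP14 and 1.27 ± 1.17 for NLRP13 (edgeR adjusted p of at least 0.841), and 0 of 3 were called.

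Among 14 measured paralogs of TLE6, PADI6 and ZBED3, 5 had counts in all 15 libraries and PADI4, the annotated neighbour of PADI6, was at 0 in all; PADI4 was chosen after its values were seen. Of 11 tested, 3 were higher and 8 lower in vitro, none called, with a median log2 fold change of -0.20 beside -0.04 over all genes tested. ZBED1, a BED-type zinc finger gene, had the smallest p, at 1.60 ± 1.32 CPM in the automatic group, 4.93 ± 7.32 CPM in the manual group and 16.4 ± 23.7 CPM in vivo, a log2 difference of -2.54 ± 1.19 (edgeR adjusted p = 0.805). ZBED1 ran from 0 to 3.56 CPM in the automatic group. It ran from 0.253 to 17.8 CPM in the manual group and from 4.29 to 58.8 CPM in vivo, so those groups overlapped. For automatic against manual 6 of the 11 tested paralogs were higher and 5 lower, none called, with a median of 0.13 beside -0.05.

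Partners known from the mouse complex and its lattices, such as cofilins, 14-3-3 proteins, UHRF1, SKP1 and tubulins, are used widely by cells, and 13 of 16 had counts in all 15 libraries. Of 15 tested, 13 lay above 0 and 2 below for automatic against manual (median 0.18 beside -0.05 over all genes), and 10 above and 5 below for in vitro against in vivo (median 0.20 beside -0.04), with none called in either. TUBA1C, an alpha tubulin, had the smallest p in vitro against in vivo, at 116 ± 59.1 CPM in the automatic group, 88.9 ± 27.8 CPM in the manual group and 196 ± 128 CPM in vivo, a log2 difference of -0.95 ± 0.44 (edgeR adjusted p = 0.805).

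Other transcripts of the oocyte and its maternal-effect genes, of which 30 were measured, gave a wider field to set beside the complex. Counts in all 15 libraries were found for 6 of them (20.0%, against 31.5% of the table), and none was at 0 throughout. In vitro against in vivo 15 of 20 tested lay above 0 and 5 below, with a median of 0.88 beside -0.04 over all genes and -0.31 for the 4 members, and none was called; putting a floor of 3 counts under genes absent from a group left that median as it was. OOSP2, an oocyte-secreted protein, had counts in 4 of 5 automatic, 3 of 5 manual and 0 of 5 in vivo libraries, with means of 1.06 ± 1.11 CPM and 1.78 ± 1.86 CPM in the automatic and manual groups (edgeR adjusted p = 0.542 for in vitro against in vivo). CPEB1, which controls the polyadenylation of stored oocyte mRNAs, averaged 3.71 ± 3.63 CPM in the automatic group, 1.88 ± 3.71 CPM in the manual group and 0.153 ± 0.112 CPM in vivo, a log2 difference of 4.08 ± 1.89 (edgeR adjusted p = 0.805). For automatic against manual 10 lay above and 10 below 0 (median 0.01), and KIT, a receptor kinase of the oocyte that other cells express too, had the smallest p (log2 1.17 ± 0.50, edgeR adjusted p = 0.9999).

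DPPA3, a maternal-effect gene that embryos also transcribe, was chosen after its values were seen because it had counts in all 15 libraries. It averaged 947 ± 621 CPM in the automatic group, 960 ± 1035 CPM in the manual group and 846 ± 1281 CPM in vivo (SD, n = 5 each). It differed by log2 -0.02 ± 0.78 for automatic against manual and 0.17 ± 0.68 for in vitro against in vivo (edgeR adjusted p of at least 0.999).

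Genes of the early cleavage stages were measured in 2 cases, ZSCAN4 and KLF17, out of 10 listed. ZSCAN4, a zinc finger gene of genome activation, lay at 3.14 ± 4.61 CPM in the automatic group with counts in 2 of 5 libraries, at 21.5 ± 32.3 CPM in the manual group with counts in 4 of 5, and at 0.0377 ± 0.0621 CPM in vivo with counts in 2 of 5 (edgeR adjusted p = 0.553 for in vitro against in vivo). ZSCAN4, like KHDC3L, TLE6 and PADI6, was at 0 in part of every group.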

How the data were processed

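The deposited values are estimated counts per gene for 15 libraries, whole numbers without scaling, in 1 table. Per the submitters' processing notes the tools were FastQC, fastp and kallisto, with no versions. Neither the transcript set, the build nor the use of molecular identifiers is given in the sources used here; no coordinates are therefore printed, and genes with close paralogs may share reads. One line without a gene name was left out. Of 17259 symbols 17059, and all 7 members, matched the ARS-UCD2.0 annotation. Replicate libraries differed by more than sampling noise (chi-square per degree of freedom at least 184).

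Rounding changed no value. Counts of all 15 libraries entered 1 fit in edgeR 4.0.16 (R 4.3.3) with TMM and filterByExpr, tested by quasi-likelihood F tests. Genes with a Benjamini-Hochberg adjusted p under 0.05 were called. The SE is the absolute log2 fold change over the square root of the F value. In vitro against in vivo is the mean of the automatic and manual log2 values. Correlations used 100000 permutations. The tests were tried on simulated counts. Members and lists were chosen with earlier results of these data known. All members were named in each comparison, as were up to 2 genes per list with an unadjusted p under 0.05 (of the lineage lists KRT18, KRT19 and APOA1 are not described), and the 8 most alike genes. DESeq2 1.42.0 and limma 3.58.1 served as alternatives.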

Additional observations from a re-analysis of the deposited data

Results flagged for a closer look

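Single libraries stood far from the other 4 of their group, in 4 of the 15 combinations of gene and group that were not all at 0. Chance gives about 1 in 20 for normally distributed values, a rate that does not hold for skewed CPM with many zeros. TLE6 in automatic 4 was at 32.7 CPM (591 counts). PADI6 was at 2.41 CPM in automatic 1 (77 counts), where the other 4 automatic libraries were at 0, so that any count would have stood apart. PADI6 was also at 0.491 CPM in manual 1 (16 counts). ZBED3 in manual 5 was at 11.1 CPM (210 counts).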

How the results depend on the processing

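Of 400 values of the 4 tested members under another setting that came with an adjusted p, 0 had one under 0.05 by edgeR, DESeq2 or limma-voom. Apart from fits without 1 library, 162 kept their direction and side of the threshold, 13 changed sign, and OOEP passed an unadjusted exact permutation test, added after seeing the data, in vitro (p = 0.0246) and in the manual group (p = 0.0317) against in vivo. The unadjusted p of OOEP in vitro, 0.0308 by edgeR, was 0.0984 without TMM factors, 0.0906 with the replicate block, 0.0744 with gene detection as a covariate and 0.186 without in vivo 2 by edgeR, 0.0832 by limma-voom and 0.00393 by DESeq2. The cause of the changes was not tested.

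TLE6 in vitro against in vivo was at -0.047 without TMM factors and at -0.92 without the low-detection libraries. Without in vivo 2 and 4 alone, also added after seeing the data, TLE6 was at -0.66 in vitro and -0.11 in automatic, and KHDC3L at -0.079 in manual, against in vivo. Without all low-detection libraries TLE6 and OOEP in automatic against in vivo were at -0.89 and 0.20. TLE6 in manual against in vivo was at 1.07 by limma-voom, 0.17 with gene detection as a covariate and 0.87 by exact permutation. With the replicate block it was at 1.33, and in vitro against in vivo KHDC3L was at 0.045 and ZBED3 at -0.63. The labels do not say what a shared replicate number means. Deviations of same-numbered libraries correlated by 0.00137 to 0.380, with 8 of 15 pairs over 0.1 (all 3 of numbers 1 and 3). Libraries of different numbers were not compared, so these values cannot settle whether the numbers mark pairs. The main fit did not take them as pairing. Number 2 was low-detection in all 3 groups, and number 4 in the automatic and in vivo groups. Whether same-numbered libraries share a batch was not tested.

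Over fits without 1 library, automatic against manual ranged from -0.13 to 1.94 for TLE6 and -3.33 to 0.078 for ZBED3. In vitro against in vivo ranged from -0.52 to 1.77 for TLE6, -1.19 to 0.27 for KHDC3L and -1.10 to 1.01 for ZBED3. Automatic against in vivo ranged from -0.59 to 2.34 for TLE6, and manual against in vivo from -1.24 to 1.19 for TLE6 and -1.14 to 2.40 for ZBED3. KHDC3L ranged from -3.00 to -1.09 in automatic and 0.12 to 1.63 in manual against in vivo, and OOEP from -2.46 to -1.38 in vitro against in vivo.

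Genes called over all genes, 0 for automatic against manual, 2 for in vitro, 2 for automatic and 0 for manual against in vivo, became 9, 86, 87 and 44 by DESeq2, 0, 15, 9 and 1 by limma-voom, 0, 8, 7 and 1 with the replicate block, and 1, 7, 9 and 3 without the low-detection libraries. Without in vivo 2 and 4 they were 0, 1, 1 and 1, and without TMM factors both counts of 2 were 0. Automatic against in vivo had 1 without a filter and 1 with only its groups fitted, and in vitro against in vivo had 7 with gene detection as a covariate. Without 1 library the counts ranged from 0 to 7 in vitro and 0 to 4 for automatic against in vivo, and stayed at 0 in the other comparisons.

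Totals of 97 counts for KHDC3L and 112 for PADI6 limit the precision of their values.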
